A study of Homo sapiens with 10 samples.

Results

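SMARCB1 is the gene that rhabdoid tumours lose, and the stretch of chromosome 22 around it was examined here for peaks of the SMARCB1 protein and of BRD9. The window ran on hg19 from chr22:23900000-24400000, with the gene at chr22:24129150-24176705. It held 8 of the 543439 peaks in 8 peak lists. They were taken by position alone, as every peak that shared at least 1 bp with the window. Of these 8 peaks, 1 lay inside the gene, 7 lay in the left flank between the window's start and the gene, and 0 lay in the right flank.

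All samples were of G401, a human cell line from a rhabdoid tumour, with the genotype SMARCB1(-/-) in the labels. The method was CUT&RUN: a nuclease tethered to an antibody frees DNA fragments around the bound protein, and these are sequenced. Doxycycline induced SMARCB1 or, in the control, GFP. SMARCB1 itself was profiled in SMARCB1-induced cells (2 lists). BRD9 was profiled in both kinds of cells, with 3 lists each, and the series has 10 samples. A SMARCB1 sample of GFP-induced cells and an IgG sample of SMARCB1-induced cells are not analysed here. The labels do not say what lesion inactivated the gene, how the induced SMARCB1 is encoded, whether the cells are 1 clone, or whether replicates came from separate cultures. P-values therefore measure the spread between these samples, which may be technical.

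SMARCB1, also called BAF47, INI1 or SNF5, is a core subunit of the canonical and polybromo forms of SWI/SNF, complexes that use ATP to move nucleosomes. BRD9 is a bromodomain protein of the non-canonical form, which assembles without SMARCB1. Loss of both copies of SMARCB1 is the defining event of rhabdoid tumours, and re-expression from a cDNA is a standard way to study what the missing subunit does. A cDNA carries the exons of the gene and not its introns or its own promoter.

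The promoter of SMARCB1 is shown because 0 of the 8 lists held a peak at the start of the gene. Its 250 bases before the transcript start, from RefSeq on GRCh38.p14 at chr22:23786716-23786965 on the plus strand, are given with each CG dinucleotide in capitals.
SMARCB1 promoter: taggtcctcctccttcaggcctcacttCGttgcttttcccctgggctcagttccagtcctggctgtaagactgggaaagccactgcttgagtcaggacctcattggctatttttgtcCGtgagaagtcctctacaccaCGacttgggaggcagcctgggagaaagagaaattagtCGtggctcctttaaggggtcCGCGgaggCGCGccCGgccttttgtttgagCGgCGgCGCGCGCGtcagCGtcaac
The CG dinucleotide reads the same on both strands and occurs 16 times, 13 of them in the last 100 bases. The median over 35116 promoters was 11, and 41.0% held at least 16. At least 1 CG was found in 93.9% of them. In RefSeq order the protein-coding neighbours before SMARCB1 are MMP11, which encodes a matrix metalloproteinase, CHCHD10, which encodes a mitochondrial protein, and C22orf15. After it come DERL3, which encodes a derlin of the endoplasmic reticulum, SLC2A11, which encodes a sugar transporter, and MIF, which encodes a cytokine. Their hg19 positions, and those of the exons of SMARCB1, were not used here, so no peak was assigned to an exon or to a neighbour.

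Each list gives, for each of its peaks, the raw reads from the sample and from a control library, and both as RPKM, which divides reads by the peak's length in kb and the library's size in M reads. The SMARCB1 libraries held 59.7 and 64.2 M reads and the BRD9 libraries 10.1 to 13.9 M. The control had 49.6 M reads in both SMARCB1 lists and 23.1 M in all 6 BRD9 lists. The control of the SMARCB1 lists is named GFP by the submitters, and that of the BRD9 lists is not named. Which antibody the GFP control was made with is not stated, so whether it is the SMARCB1 sample of GFP-induced cells is not known here, and the control values of the SMARCB1 lists are read only as those of a library named GFP. The lists hold no reads outside their own peaks, so 0 peaks in a region is not a measurement of 0 reads there.

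Inside the gene, BRD9 had a single peak and SMARCB1 had none. The BRD9 peak was in replicate 1 of SMARCB1-induced cells, at chr22:24135647-24135923, 6.50 kb downstream of the gene's start and 276 bp wide. The other 5 BRD9 lists and both SMARCB1 lists held 0 peaks in the gene. The peak had 10 sample reads (exact 95% Poisson interval 4.80 to 18.4, counting error only), the lowest number in its list, which 1000 of its 46448 peaks shared. At 2.98 RPKM it was close to the list's median of 3.14 RPKM. Its score, the false discovery rate as a −log10 value from the authors, was 4.87 against a list median of 6.86 and a minimum of 3.99, which placed it 84.0% of the way down the list ranked by score.

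The control library also had reads there. It had 4 reads in the peak (interval 1.09 to 10.2), a density of 0.627 RPKM (0.171 to 1.60). The median control density over all peaks of that list was 0.649 RPKM, and an even spread of the control reads over the span of the chromosomes would give 0.339 RPKM, or 2.16 reads in this interval. The gene was thus covered by a few reads of both libraries at this one place. Whether they came from the chromosome or from the induced copy was not tested, since the peak was not placed relative to the exons.

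Read against the gene's length alone, a window without a peak was not rare. Windows were laid without regard to genes, and no set of other genes was compared. The gene spans 47.6 kb. Of 739 windows of that length laid end to end on chromosome 22, 66.2% and 67.9% held a peak in SMARCB1 replicates 1 and 2. In the BRD9 lists of GFP-induced cells the shares were 30.0%, 33.6% and 29.8%, and in those of SMARCB1-induced cells 34.5%, 32.1% and 33.6%. Over 62019 such windows on the numbered chromosomes and X, the shares were 48.6% and 53.6% for SMARCB1, 21.7%, 21.7% and 20.8% for BRD9 in GFP-induced cells, and 29.3%, 26.8% and 27.1% for BRD9 in SMARCB1-induced cells. So 0 peaks in the gene was the more common outcome in each BRD9 list, and the less common one on chromosome 22 in the SMARCB1 lists.

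The flanks were uneven. All 7 flank peaks lay in the left flank, which is 229 kb long, and 0 in the right flank of 223 kb. All 7 were also more than 164 kb from the gene. SMARCB1 replicate 1 had 2 of them and replicate 2 had 4, and the remaining one was a BRD9 peak.

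The SMARCB1 peaks formed 4 regions, 2 of which were called in both replicates. The first shared region ran over chr22:23955226-23955751. Replicate 1 had 28 sample and 9 control reads there, at 1.42 and 0.589 RPKM. Replicate 2 had 40 sample and 9 control reads, at 1.28 and 0.346 RPKM. In both replicates the sample density was above the control density. Calling peaks against a control selects for this, so it is no separate evidence.

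The second shared region was the one nearest the gene, at chr22:23962876-23964651. Replicate 2 had 112 sample reads (92.2 to 135) and 18 control reads in its peak there, which made it the strongest of the 8 peaks by score, at 9.61. Replicate 1 had 35 sample reads (24.4 to 48.7) and 6 control reads. The peaks of the replicates overlapped by their ends, replicate 2 covering chr22:23962876-23964326 and replicate 1 chr22:23964226-23964651. Their densities were 1.29 and 1.28 RPKM.

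The other pair of SMARCB1 regions was called in replicate 2 alone. At chr22:23902251-23902626 it had 29 sample and 6 control reads, with 1.30 and 0.323 RPKM. At chr22:23933276-23933601 it had 26 sample and 7 control reads, with 1.34 and 0.434 RPKM. Across all 6 SMARCB1 peaks the sample density was 1.28 to 1.42 RPKM, at or below the list medians of 1.42 and 1.40 RPKM. The control density was 0.250 to 0.589 RPKM with a median of 0.334 RPKM, against list medians of 0.461 and 0.455 RPKM. Only the replicate 1 peak at 0.589 RPKM was above the median of its list. The control had the same size in both lists and may be 1 library. Overlapping peaks of the replicates can then count the same control reads, so the 6 control values are not independent. Both peaks of replicate 1 overlapped a peak of replicate 2, and 2 of the 4 peaks of replicate 2 overlapped one of replicate 1.

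The BRD9 peak of the left flank was in replicate 3 of GFP-induced cells, at chr22:23913101-23913434. It had 10 sample reads (4.80 to 18.4) and 0 control reads (up to 3.69), at 2.94 RPKM against a list median of 3.37 RPKM. Its score of 4.40 placed it 97.7% of the way down its list. Neither of the 2 BRD9 peaks in the window overlapped a SMARCB1 peak, and neither was called in a second list.

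**Figure D1:**
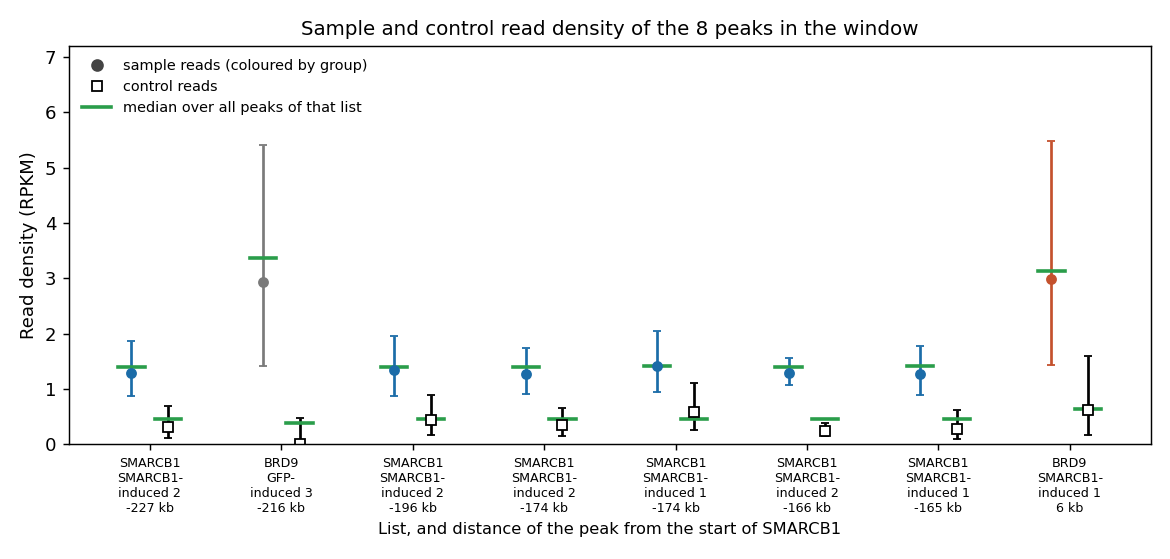
Sample reads (filled circles, blue for SMARCB1, grey for BRD9 in GFP-induced cells, red for BRD9 in SMARCB1-induced cells) and control reads (open squares) as RPKM for the 8 peaks of the window, in order of position, with exact 95% Poisson intervals that cover counting error only. Green bars are the medians over all peaks of the same list, and the sample densities of the 2 BRD9 peaks, 2.94 and 2.98 RPKM, lie just below theirs.

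The comparison the design allows is BRD9 with and without SMARCB1, and at this locus it had almost nothing to compare. Inside the gene the GFP-induced lists had 0, 0 and 0 peaks and the SMARCB1-induced lists 1, 0 and 0, a difference of 0.333 peaks per list. In the flanks they had 0, 0 and 1 against 0, 0 and 0, a difference of -0.333. As sample reads in peaks per M reads of the library, the differences were 0.275 inside the gene and -0.326 in the flanks. In two-sided exact permutation tests, 3 lists against 3 allow no p below 0.1, and each of the 4 had p = 1 and adjusted p = 1. With a peak in only 1 list, every relabelling of the lists gives a difference of the same size. These p-values were thus fixed in advance and do not compare the differences with the spread between lists. Each difference rested on a single peak, and without BRD9 replicate 1 of SMARCB1-induced cells the differences inside the gene were 0. Without BRD9 replicate 3 of GFP-induced cells those in the flanks were 0.

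Gained and lost BRD9 regions were absent. A region, the union of overlapping peaks over the 6 BRD9 lists, counted as gained when all 3 lists from SMARCB1-induced cells had a peak in it and none from GFP-induced cells did, and as lost in the opposite case. Over the genome 6.85% of 119939 regions were gained and 1.04% were lost. The window held 2 regions, of which 0 were gained and 0 were lost. From 2 regions no share near or away from that background can be read. Each was a peak of a single list, so with at least 1 of 3 lists enough, 1 was gained and 1 lost, against 38.4% and 42.8% of all regions.

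Beyond the single peak in the gene, all 8 lists were empty over the same long stretch. It ran from chr22:23964651-24638625, which is 674 kb, reaching 164 kb before the gene and 462 kb past it, beyond the end of the window. Its left edge was the SMARCB1 peak of replicate 1 and its right edge a SMARCB1 peak of replicate 2 at chr22:24638626-24639001, with 33 sample and 10 control reads. In SMARCB1 replicate 1 the first peak on the right was at chr22:24643376-24643881, with 51 sample and 6 control reads. The replicates' own stretches were thus close in length, at 679 and 674 kb.

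**Figure D2:**
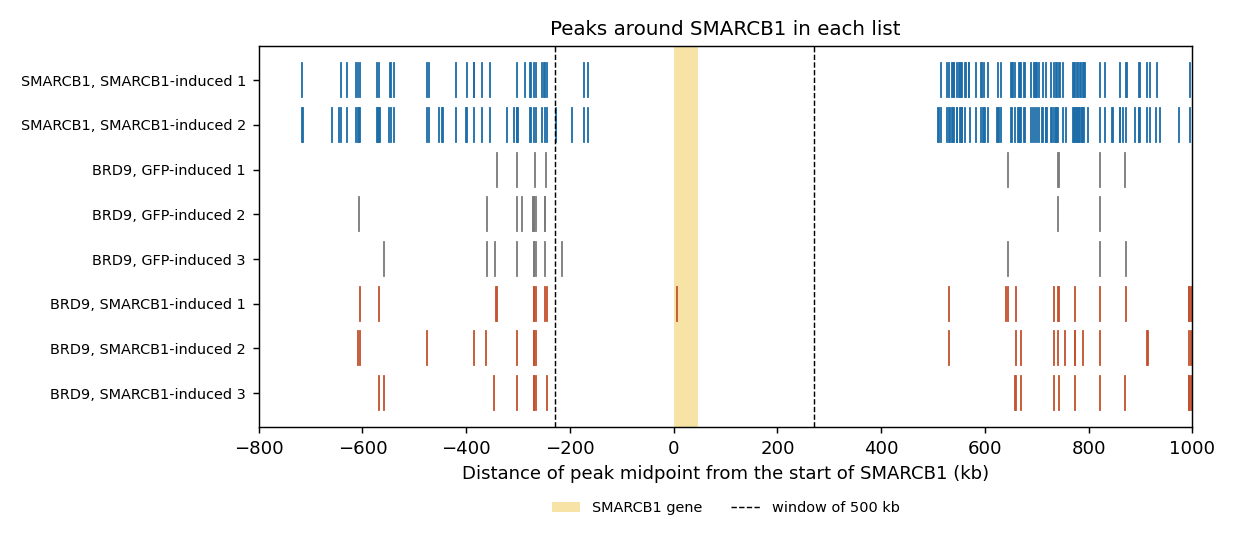
Peaks of the 8 lists by distance of their midpoints from the start of SMARCB1 in kb, each tick 1 peak, with the gene shaded and the 500 kb window between dashed lines. From 164 kb before the gene to 462 kb past it, the 1 tick is the BRD9 peak of SMARCB1-induced replicate 1, and peaks of all 8 lists stand on both sides.

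With the peaks of all 8 lists pooled and the peak inside the gene set aside, this was the longest of the 3654 stretches between neighbouring peaks on chromosome 22. The next longest was 388 kb and the median 2.55 kb. With the peak inside the gene kept, the right-hand piece of 503 kb was still the longest. The whole stretch was also the longest when any one of the 8 lists was left out, with lengths of 674 to 679 kb. Leaving out a list cannot shorten it, and leaving out a BRD9 list cannot change its length, since both edges are SMARCB1 peaks. Without SMARCB1 replicate 1 the next longest was 526 kb. On the numbered chromosomes and X, 84 of 242520 stretches were at least as long (0.0346%). That count sets a peak aside in this stretch alone. With the peak kept, 163 of 242521 were at least as long as the 503 kb piece (0.0672%). No gaps of the assembly were taken out of these counts. These are shares of stretches and not of sequence. The stretch was found through a gene, and a long stretch covers more sequence than a short one. A gene therefore falls in a stretch this long more often than these shares say.

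Grouped by protein, the lists ranked it differently. For the SMARCB1 lists together the stretch was the 4th longest of 2925 on chromosome 22, where the longest was 2729 kb. For the 6 BRD9 lists together it measured 747 kb and was the longest of 1449, but the next one, at 741 kb, was nearly as long. List by list, BRD9 was free of peaks over 890, 988 and 859 kb in GFP-induced cells and over 775, 796 and 903 kb in SMARCB1-induced cells, again with the peak inside the gene set aside. These were between the longest and the 5th longest on the chromosome. On the numbered chromosomes and X, 546 to 742 stretches were at least as long in each BRD9 list (1.36% to 2.01%). For the pooled lists the counts were 398 for BRD9 (0.342%) and 325 for SMARCB1 (0.183%). With its peak inside the gene kept, replicate 1 of SMARCB1-induced cells had a stretch of 524 kb, the 7th longest in that list.

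The groups overlapped in this length. The means were 913 ± 67.2 kb and 824 ± 68.7 kb (SD, n = 3 each), a difference of -88.1 kb, which did not exceed the spread between lists (p = 0.3 in the exact permutation test, adjusted p = 1 over 7 tests). With the peak inside the gene kept, the mean of SMARCB1-induced cells was 741 ± 195 kb and the difference -172 kb (exact permutation test, p = 0.3). Leaving out one list at a time gave differences from -127 kb, without replicate 3 of SMARCB1-induced cells, to -50.3 kb, without replicate 2 of GFP-induced cells. The stretch was shorter after SMARCB1 induction in the pairs of replicates numbered 1 and 2 and longer in the pair numbered 3.

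**Figure D3:**
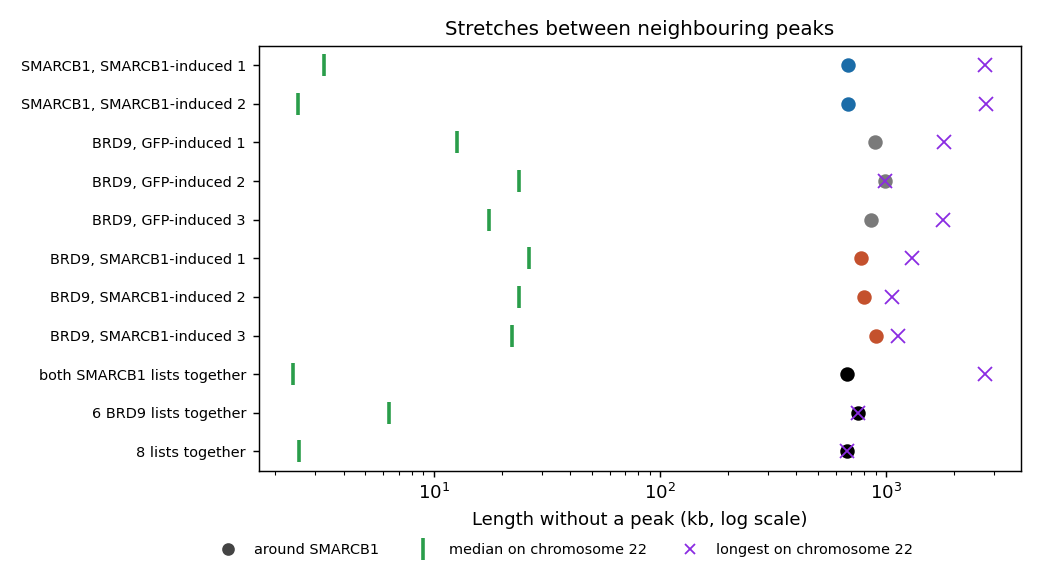
Length without a peak around SMARCB1 (circles) in each list and in pooled lists, in kb on a log axis, beside the median (green bars) and the longest (crosses) stretch on chromosome 22 for the same peaks. The peak inside the gene is set aside. For the 8 lists pooled the circle at 674 kb and the cross coincide.

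The 500 kb window as a whole was sparse but had counterparts on the chromosome. Of 70 windows of that length on chromosome 22, 15.7% held no more than the 2 peaks of SMARCB1 replicate 1, and 17.1% no more than the 4 of replicate 2, against medians of 26.5 and 38 peaks. For BRD9 the share of windows with no more peaks than the SMARCB1 window was 21.4%, 8.57% and 22.9% in GFP-induced cells and 18.6%, 10.0% and 10.0% in SMARCB1-induced cells, against medians of 4 to 6 peaks. Over 5891 such windows on the numbered chromosomes and X, the shares were 28.7% and 30.2% for SMARCB1. They were 40.5%, 32.6% and 52.6% for BRD9 in GFP-induced cells and 38.9%, 27.3% and 27.1% in SMARCB1-induced cells. Windows as sparse as this one were thus found in each list.

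Peaks resumed on both sides. In the 1 Mb before the stretch the SMARCB1 replicates had 34 and 54 peaks, and in the 1 Mb after it 103 and 130. Before the stretch the BRD9 lists had 4, 11 and 9 peaks in GFP-induced cells and 9, 10 and 8 in SMARCB1-induced cells, and the groups overlapped (means 8 ± 3.61 and 9 ± 1, SD, n = 3 each; exact permutation test, p = 0.9, adjusted p = 1). Without replicate 1 of GFP-induced cells that difference of 1 peak turned to -1.

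After the stretch the BRD9 lists had 5, 3 and 4 peaks in GFP-induced cells and 16, 15 and 15 in SMARCB1-induced cells. The groups did not overlap, with means of 4 ± 1 and 15.3 ± 0.577 (SD, n = 3 each), a difference of 11.3 peaks and the smallest p the design allows (exact permutation test, p = 0.1, adjusted p = 0.7 over 7 tests). The 7 tests include the 4 at the gene and flanks, whose p was fixed in advance. This test was added after seeing the data. For comparison, 2941 windows of 1 Mb were laid over the numbered chromosomes and X. In 30.8% of them all 3 lists of SMARCB1-induced cells had more BRD9 peaks than any list of GFP-induced cells. In 8.87% all 3 had fewer, so groups without overlap were common. That share counts any separation, however small, and does not say how common a difference of 11.3 peaks is. Over all of chromosome 22 the counts were 481, 470 and 457 in GFP-induced cells and 458, 419 and 446 in SMARCB1-induced cells.

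**Figure D4:**
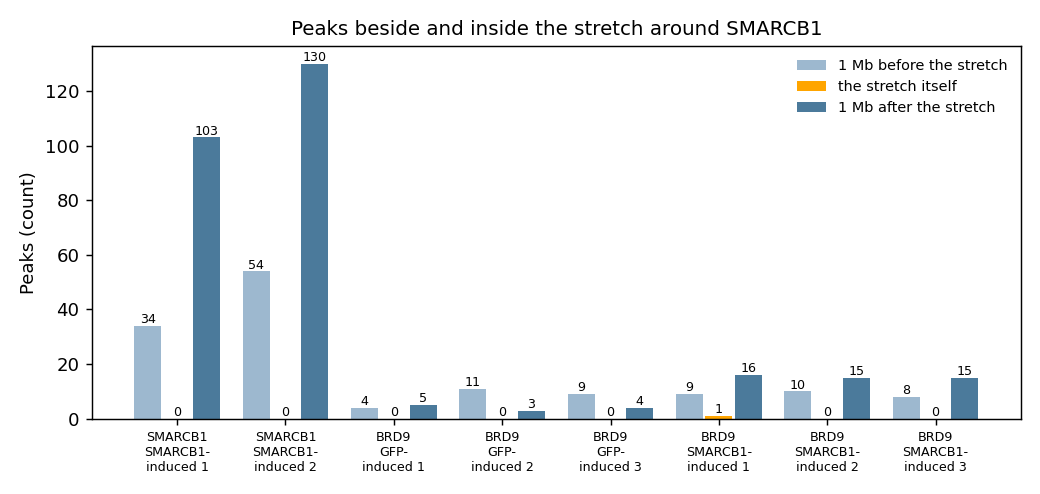
Number of peaks in each list in the 1 Mb before, inside and in the 1 Mb after the stretch around SMARCB1. Inside it the counts are 0 in 7 lists and 1 in BRD9 replicate 1 of SMARCB1-induced cells, between 4 and 54 before it and between 3 and 130 after it.

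Beyond the edges, several regions were shared between lists. On the left, a region at chr22:23862251-23865476 had a peak in all 8 lists, and one at chr22:23879901-23882551 in 6. The first of these held the last peak before the gene in BRD9 replicate 2 of SMARCB1-induced cells, with 30 sample and 17 control reads at 5.11 and 1.27 RPKM. On the right, the nearest region with BRD9, at chr22:24659651-24661951, held peaks of both SMARCB1 replicates and of BRD9 replicates 1 and 2 of SMARCB1-induced cells, with 12 and 16 BRD9 reads. The GFP-induced lists had their first peak on the right 596, 693 and 596 kb past the gene, and the SMARCB1-induced lists 484, 484 and 611 kb past it.

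The genotype label was set against these values. The lists hold no measure of DNA copy number. Sample and control reads are known inside the gene only at 1 called peak of 276 bp, where neither was 0. A called peak must hold sample reads, so that was fixed for the sample by the choice of interval. Whether the reads came from the chromosome or from the induced copy was not tested. Elsewhere in the gene and over the rest of the 674 kb the lists give no reads. Whether the DNA of the gene or its flanks is lost was not tested.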

How the data were processed

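CUT&RUN peak lists of 8 samples were used, each called on 1 sample by the authors. Per the file headers, each deposited list gives per peak the raw read count in the sample and in its control, the same as RPKM, log2 fold differences, peak caller scores (a read threshold and a strand ratio, not used in any result) and −log10 p-values and false discovery rates. The submitters' processing notes name BWA 0.7.12-r1039, SAMtools, bedtools, DiffBind and edgeR, and the builds hg19 and GRCh37, with no role. The peak caller is not given in the sources used here.

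Library sizes were recovered from reads, RPKM and peak length. Peak ends were read as the first base after the peak, since RPKM used end minus start. The window and gene came from a rule on hg19 positions. Overlap meant at least 1 bp. Groups and replicate numbers came from the titles. Group differences used two-sided exact permutation tests with Benjamini-Hochberg adjustment. The 4 tests at the gene and flanks were planned; 3 on the surrounding stretch were added after seeing the data. Members, lists and tests were chosen with earlier results of these data known. All regions of the window were named. Of 100 brute-force checks of the code 0 differed, and 200 of 200 planted regions were recovered. Python 3.11.15, numpy 2.4.6, pandas 2.3.3, scipy 1.17.1 and matplotlib 3.10.9 were used.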

Additional observations from a re-analysis of the deposited data

How the results depend on the processing

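Of 125 recomputed values, 104 were the same by direction, threshold or spread, while 20 moved and 1 changed sign. Some of the 104 could not have changed. Leaving out peaks or lists cannot add a SMARCB1 peak to the gene, or turn a peak of a single list into a gained or lost region. Nor can leaving out a BRD9 list change the length of the pooled stretch, whose edges are SMARCB1 peaks. The BRD9 reads per M reads also rest on the same peaks as the BRD9 counts. The count of 104 is thus no measure of stability. No test could pass its threshold with 3 lists against 3. The BRD9 differences inside the gene (0.333 peaks, 0.275 reads per M reads) were 0 among the better-scoring peaks of each list (at or above its median score) and with equal numbers of top peaks. The differences in the flanks (-0.333 and -0.326) were 0 in both of those settings and with flanks within 100 kb. Leaving out one list at a time gave 0 to 0.5 peaks inside the gene and -0.5 to 0 in the flanks, and 0 to 0.412 and -0.49 to 0 reads per M reads. SMARCB1 peaks in the flanks averaged 3 per list, 0.5 among better-scoring peaks and 0 within 100 kb, and 2 to 4 with one replicate left out. The control density in those peaks was 0.357 RPKM, and 0.250 RPKM among better-scoring peaks, where replicate 2 alone had a peak. A control density inside the gene could not be set against it, since the SMARCB1 lists had no peak there. Gained and lost regions numbered 0 in each planned setting, and 1 each when a peak in at least 1 of 3 lists was enough (38.4% and 42.8% of all regions). The difference of 1 BRD9 peak before the stretch was 0 among better-scoring peaks, and ran from -1, without replicate 1 of GFP-induced cells, to 2.5. The difference after it ran from 7.33 to 11.8. The difference in the length without a BRD9 peak, -88.1 kb, was -131 kb with equal numbers of top peaks, -172 kb with the peak inside the gene kept, and -127 to -50.3 kb with one list left out. The cause of these changes was not tested, beyond there being fewer peaks or lists.

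The deviations of same-numbered BRD9 lists from their group means correlated at 0.010, 0.0069 and 0.0016 over 119939 regions, so the numbers were not taken as pairs. With a replicate block, the exact permutation p over sign changes was 1 for 0.333, -0.333, 0.275, -0.326 and 1 (peak before the stretch), exact p = 0.5 for -88.1 kb and exact p = 0.25, the smallest possible, for 11.3. For the gene and the flanks, the single peak fixed this p in advance. With as few as 9 reads to a BRD9 peak and 18 to a SMARCB1 peak, lower coverage leaves no trace in the lists.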
